A study of Mus musculus with 360 samples.

Results

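Slc1a2, which encodes a glutamate transporter of the plasma membrane, and Egfr, which encodes the receptor of epidermal growth factor, were followed across every tissue, compound and concentration of the study. They were chosen by their liver counts at the highest concentration of either compound, where both fell, so the liver values at those concentrations are given as a description, with no test. All probes that carry either symbol were taken, which gave 1 probe for each gene, 2 of the 3154 probes and 2 of the 2759 genes in the deposited counts.

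The study exposed female B6D2F1/Crl (BDF-1) mice, 9 weeks old, to 1,2-dichlorobenzene (1,2-DCB) at 0, 1, 10, 30, 100 or 250 ppm, or to 1,4-dichlorobenzene (1,4-DCB) at 0, 1, 10, 50, 150 or 400 ppm. The compounds are positional isomers that differ in where the second chlorine sits on the benzene ring. The left liver lobe, kidney, lung, heart and whole ovaries were taken on study day 5 and profiled by TempO-Seq on the Mouse S1500+ v1.2 probe set, an assay in which pairs of detector oligonucleotides are ligated on their target RNA and the products are counted by sequencing. Each library is 1 tissue of 1 animal, and the same animals supplied the 5 tissues. Of 360 libraries, the 326 labelled as used were analysed. Liver had 9 animals at 0 ppm in the 1,2-DCB series and 7 in the 1,4-DCB series, 2 at 1 ppm 1,2-DCB and 4 to 6 in each other group. Kidney had 5 and 6 animals at 0 ppm, 2 at 100 ppm 1,2-DCB, 3 at 30 ppm 1,2-DCB and 4 to 6 elsewhere. Lung, heart and ovary had 10 animals at 0 ppm in each series and 4 to 7 in each exposed group. Library totals, in units of 1e6 counts, ran from 14.1 to 40.3 in liver, 8.02 to 23.5 in kidney, 12.4 to 46.5 in lung, 7.82 to 29.4 in heart and 4.34 to 13.1 in ovary. Levels are given as CPM, the counts per 1e6 of a library's total over the probes tested, after TMM scaling within each tissue. TMM gives each library a factor that allows for differences in composition. The factors ran from 0.842 to 1.29 in liver, 0.661 to 1.43 in lung and 0.616 to 1.61 in heart. Values named CPM of the library total leave this factor out.

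The tissue labels were checked against marker genes. In 0 ppm animals 9 probes of hepatocyte genes summed to 241738 to 375543 CPM in liver and to at most 3478 CPM in any kidney library. The 3 heart muscle probes summed to 212492 to 323129 CPM in heart, and the 9 ovary probes to 5805 to 22179 CPM in ovary. None of the kidney or lung genes of the marker lists is on the panel, and the kidney label was not checked. The P450 gene Cyp2f2, outside those lists, had 17691.5 to 35200 CPM in the 0 ppm lungs of the 1,2-DCB series. In the other tissues of that series it had at most 6071 CPM, in liver. The lung label was not checked otherwise.

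EGFR is a receptor tyrosine kinase that binds EGF, TGF-alpha and related ligands. It pairs with the other ErbB receptors and signals through the RAS to MAP kinase cascade, PI3 kinase and STAT proteins. CBL ubiquitin ligases target the active receptor, and DUSP phosphatases act on the MAP kinases below it. In the adult liver EGFR is abundant on hepatocytes and takes part in their proliferation after injury. SLC1A2, also called GLT-1 or EAAT2, takes up glutamate with sodium and is best known from astrocytes. In the liver it marks the hepatocytes next to the central vein, which also hold glutamine synthetase (Glul) and capture glutamate and ammonia before blood leaves the lobule. Genes of that zone, the pericentral zone, are maintained by Wnt and beta-catenin signalling, which acts through TCF/LEF factors.

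In the GENCODE M21 annotation of GRCm38, Slc1a2 lies on the plus strand at chr2:102658659-102790784, overlapped by the antisense gene Gm13872, and Egfr on the plus strand at chr11:16752203-16918158, overlapped by the antisense gene Egfros. Whether the probe counting keeps strands apart is not given in the sources used here. The 250 bases before the RefSeq start of each gene (GRCm38.p6, plus strand, 5′ to 3′) are shown because both genes fell in the exposed liver. Capitals mark the only matches among 8 motifs searched on both strands: CTTTGAT, the TCF/LEF motif, whose reverse complement stands in the Slc1a2 window 207 bases before the start, and GGGCGG, the SP1 motif, whose reverse complement stands 9 bases before the start of Egfr.
Slc1a2, chr2:102706188-102706437: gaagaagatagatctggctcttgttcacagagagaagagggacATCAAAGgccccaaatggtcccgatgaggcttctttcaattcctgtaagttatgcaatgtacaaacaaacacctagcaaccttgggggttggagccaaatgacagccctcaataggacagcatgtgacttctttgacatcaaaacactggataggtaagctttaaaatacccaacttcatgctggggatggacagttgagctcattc
Egfr, chr11:16751953-16752202: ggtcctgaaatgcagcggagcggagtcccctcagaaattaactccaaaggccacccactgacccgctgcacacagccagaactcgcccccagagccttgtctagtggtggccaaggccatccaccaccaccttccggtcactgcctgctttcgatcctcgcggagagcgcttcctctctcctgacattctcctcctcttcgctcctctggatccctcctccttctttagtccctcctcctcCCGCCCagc
The windows differ in base composition. Slc1a2 has 44.8% G and C and 1 CpG, and Egfr has 60.8% and 11 CpG, against medians of 52.4% and 6 over 32851 mouse promoters of the same length. CTTTGAT occurs in 3.21% of those promoters and GGGCGG in 32.7%. The other motifs searched are in neither window. They were TATAAA, the Goldberg-Hogness box (in 12.4% of all promoters), CAAAGTCCA of HNF4A (0.384%), TTCNNNGAA of STAT5 (7.02%), TGACNNNGC, the antioxidant element (10.2%), TTGCGCAA of C/EBP (0.164%) and the spaced nuclear receptor repeat named DR4 (0.0152%). Slc1a2 has further starts, and 2 of its coding transcripts span the window shown.

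In unexposed animals both transcripts were highest in the liver. Slc1a2 stood at 29.7 ± 6.62 CPM (SD, n = 9) in the livers of the 1,2-DCB series and at 25.7 ± 4.50 CPM (n = 7) in those of the 1,4-DCB series. Kidney followed with 2.17 ± 0.821 CPM (n = 5) and 1.90 ± 0.372 CPM (n = 6), and lung with 0.840 ± 0.402 and 0.938 ± 0.460 CPM (n = 10 each). Thus every liver library at 0 ppm held more Slc1a2 than any kidney or lung library at 0 ppm. In heart and ovary Slc1a2 was at or near the counting limit. In the heart it had 0 counts in 6 of 10 animals of the 1,2-DCB series and 8 of 10 of the 1,4-DCB series, in the ovary in 9 of 10 and 5 of 10, and the highest library held 8 counts.

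Egfr was also present in the other tissues. It reached 341 ± 73.6 CPM in liver in the 1,2-DCB series (n = 9) and 280.0 ± 99.3 CPM in the 1,4-DCB series (n = 7). Ovary held 92.4 ± 13.1 and 81.5 ± 6.91 CPM (n = 10 each), kidney 83.2 ± 7.15 and 83.9 ± 8.45 CPM (n = 5 and 6), lung 51.2 ± 7.52 and 51.5 ± 10.2 CPM (n = 10 each), and heart 8.63 ± 1.70 and 7.35 ± 1.79 CPM (n = 10 each). Neighbours in the order of levels were compared by two-sided permutation tests of the mean log2 CPM (exact where a group had fewer than 10 animals), with Benjamini-Hochberg adjustment over 16 pairs. Kidney and ovary could not be separated for Egfr, with adjusted p = 0.215 and 0.549 by exact permutation, nor heart and ovary for Slc1a2, with adjusted p = 0.215 and 0.182 by permutation. The other 12 pairs differed beyond the spread between animals, with adjusted p of at most 0.00444 by permutation. CPM is a share of each tissue's own counts, so this order also depends on what else a tissue holds. The better-counted probe of the alpha globin gene Hba-a1 had a median of 77178 CPM in 0 ppm lungs of the 1,2-DCB series. In the kidneys and ovaries of that series its median was 11852 and 1448 CPM. The part of blood RNA in the order was not tested. The 0 ppm livers were also the controls of the comparisons that chose the genes. The tests of liver against another tissue are therefore not independent of that choice. With the tissues paired by animal in an exact sign-flip permutation test, 6 of those 12 did not pass, those with only 4 to 6 animals that had both tissues. The kidney and liver pairs of Slc1a2 were among them, with liver higher in 5 of 5 animals (adjusted p = 0.1 by exact permutation) and in 4 of 4 (adjusted p = 0.154 by exact permutation). The smallest unadjusted p that 5 and 4 pairs allow in this exact permutation test is 0.0625 and 0.125.

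**Figure D1:**
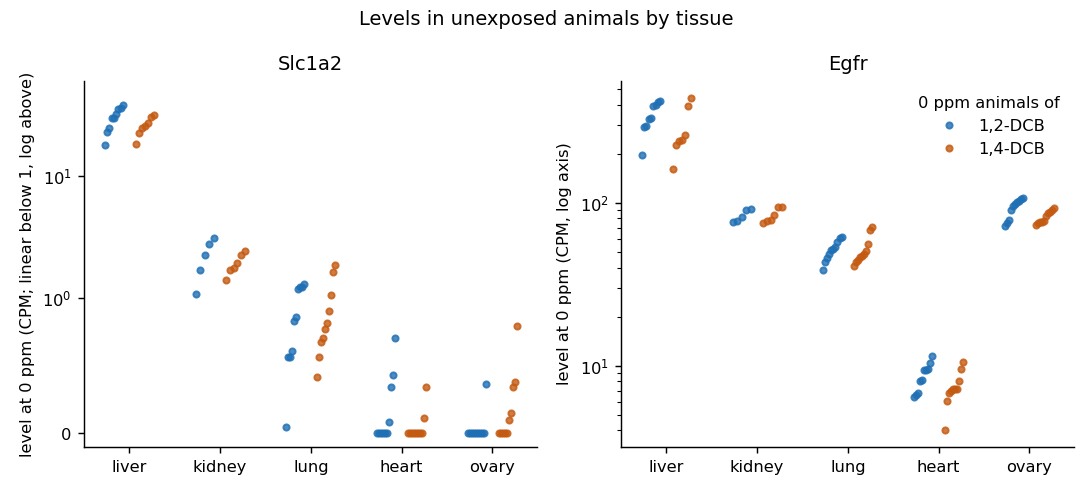
Levels of Slc1a2 and Egfr (CPM) in 0 ppm animals, 1 point per library, by tissue and exposure series. Slc1a2 falls from about 30 CPM in liver to a few counts in heart and ovary, while Egfr is highest in liver, alike in kidney and ovary, and lowest in heart.

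At 250 ppm 1,2-DCB the 6 livers in use had little Slc1a2 left. The 9 control livers spanned 18.1 to 37.9 CPM with a median of 30.0 CPM, which came from 280 to 678 counts per library. The 6 exposed livers had 0.249, 0.273, 0.324, 0.337, 0.802 and 1.75 CPM, from 5 to 31 counts. The groups did not overlap, and the exposed mean of 0.623 ± 0.590 CPM was 2.10% of the control mean, 47.6-fold lower. The fitted change was -5.59 ± 0.29 on the log2 scale, the largest fall of the 2601 probes measured in liver, and -6.19 without exposed animal 506R, the library with 1.75 CPM. Of those 2601 probes, 24.6% were called lower at an adjusted p under 0.05 in this comparison. The liver of animal 504 in this group, labelled as not used for its low depth, had 30.3 CPM of the library total from 4 counts, against 16.2 to 41.5 CPM in the controls on that scale. At 400 ppm 1,4-DCB the 5 exposed livers had 4.30, 5.51, 6.77, 6.92 and 11.6 CPM, against 18.3 to 31.4 CPM with a median of 25.9 CPM in 7 controls. These groups did not overlap either, and the exposed mean of 7.03 ± 2.79 CPM was 27.3% of the control mean. The fitted change was -1.86 ± 0.24, and 13.6% of the probes were called lower.

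Egfr fell less far from a higher level. At 250 ppm 1,2-DCB the exposed livers had 36.6, 37.9, 39.8, 46.6, 49.7 and 73.4 CPM, against 197 to 420 CPM with a median of 331 CPM in the 9 controls. All 6 exposed livers lay below every control, and their mean of 47.4 ± 13.8 CPM was 13.9% of the control mean. The liver of animal 504 of this 1,2-DCB group, labelled as not used, had 204 CPM of the library total from 27 counts, against 198 to 427 CPM in the controls. The fitted change was -2.85 ± 0.26, the 29th largest fall among the 2601 probes. At 400 ppm 1,4-DCB the exposed livers had 121.5, 130, 147.8, 151.1 and 258 CPM, against 161 to 441 CPM with a median of 242 CPM in the 7 controls. Of the 5 exposed livers, 4 lay below every control, and animal 504, at 258 CPM, lay above the control median. The fitted change was -0.79 ± 0.26, and -1.03 without animal 504. Of the 2601 probes, 24.6% were called lower at 250 ppm 1,2-DCB and 13.6% at 400 ppm 1,4-DCB. How many probes had groups without overlap was not counted. The concentrations of the isomers differ here, so the changes of -5.59 and -2.85 under 1,2-DCB and of -1.86 and -0.79 under 1,4-DCB are set side by side only. In these pieces of whole tissue, fewer cells of a type and less RNA per cell cannot be told apart.

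**Figure D2:**
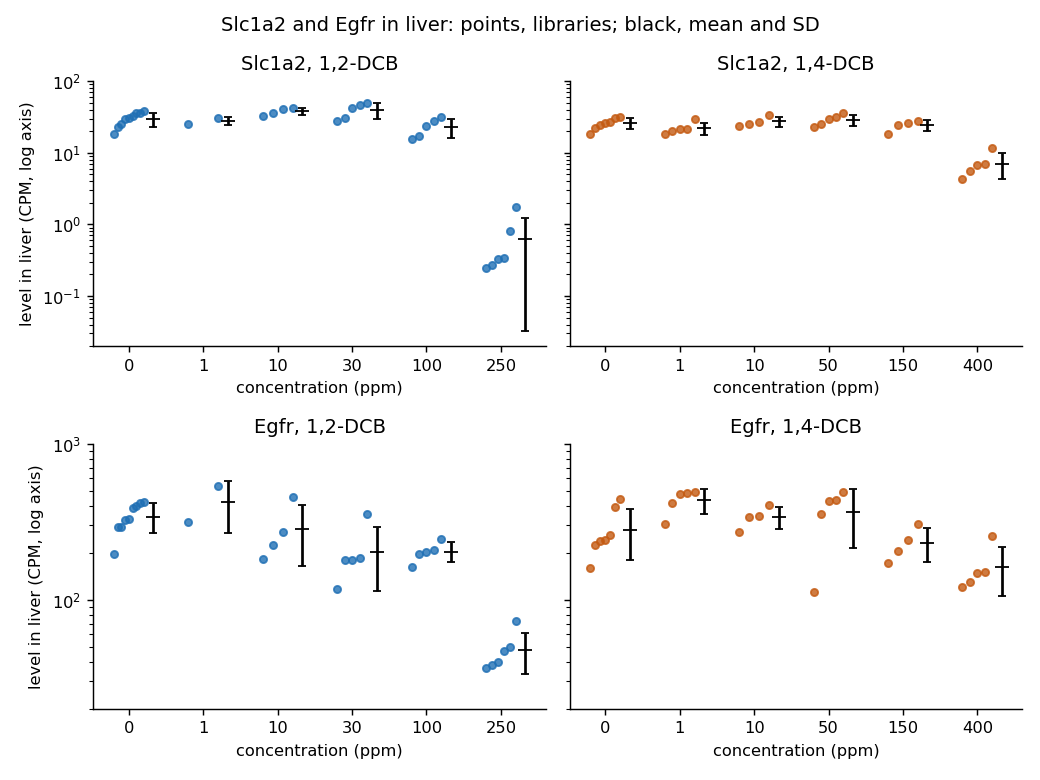
Slc1a2 (top) and Egfr (bottom) in liver, in CPM on a log axis, against the concentration of 1,2-DCB (left) and 1,4-DCB (right), with 1 point per library and the group mean and SD in black. Slc1a2 lies between 15.6 and 49.8 CPM at 1 to 100 ppm 1,2-DCB and between 0.249 and 1.75 CPM at 250 ppm, while 4 of 5 Egfr values at 30 ppm lie below every control.

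Below the highest concentrations Egfr passed the test at 30 and 100 ppm 1,2-DCB and Slc1a2 at none, and the difference between the genes was not tested. These comparisons use other exposed animals than those that chose the genes but the same 0 ppm animals. At 100 ppm 1,2-DCB it had 15.6, 16.9, 23.6, 27.7 and 31.5 CPM, with 2 of 5 livers below every control and a change of -0.36 ± 0.21 (95% interval -0.79 to 0.07, edgeR quasi-likelihood test, adjusted p = 0.257). At 30 ppm it had 27.8, 30.7, 41.6, 45.9 and 49.8 CPM, with 3 of 5 livers above every control (change 0.40 ± 0.21, adjusted p = 0.228 by edgeR), and at 10 ppm 32.5, 36.002, 40.2 and 41.8 CPM (change 0.34 ± 0.22, adjusted p = 0.425 by edgeR). Under 1,4-DCB at 1 to 150 ppm the 18 livers spanned 18.1 to 35.3 CPM, with changes from -0.22 to 0.17 and adjusted p from 0.934 by edgeR upwards.

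Egfr was lower at 30 and 100 ppm 1,2-DCB. At 30 ppm the livers had 116.7, 180, 181, 186 and 355 CPM, 4 of them below every control, with a change of -0.74 ± 0.25 (edgeR, adjusted p = 0.0397), where 5.57% of the probes were called lower. At 100 ppm they had 162, 197, 203, 209 and 245 CPM, at the bottom edge of the control range, with a change of -0.74 ± 0.25 (edgeR, adjusted p = 0.0277) and 6.73% of the probes called lower. At 10 ppm the values of 183, 225, 273 and 455 CPM ran through the control range (change -0.26 ± 0.26, adjusted p = 0.673 by edgeR), and the pair at 1 ppm had 314 and 534 CPM. Under 1,4-DCB the point estimates at 1, 10 and 50 ppm were positive, at 0.64 ± 0.25, 0.28 ± 0.27 and 0.38 ± 0.25, and that at 150 ppm was -0.28 ± 0.27, with adjusted p from 0.774 by edgeR upwards. At 1 ppm 1,4-DCB 3 of 5 livers, at 476, 485 and 492 CPM, lay above every control.

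The calls of Egfr at 30 and 100 ppm were not stable. They ended when the libraries labelled as not used were included (changes -0.75 and -0.77, adjusted p = 0.244 and 0.143 by edgeR). They also ended when the log2 level of Dbp, an output gene of the circadian clock, was a covariate (-0.32 and -0.44, adjusted p = 0.507 and 0.208 by edgeR). Dbp itself stood at 3.92 to 95.2 CPM in the control livers and at 168 to 407, 90.9 to 422 and 42.1 to 208 CPM at 10, 30 and 100 ppm 1,2-DCB, and the hour of collection is not given in the sources used here. Dbp met the control range only at the edges at 30 ppm and overlapped it in part at 100 ppm. Dbp thus largely moved with exposure, and losing the calls with this covariate does not separate Dbp from exposure. The call at 30 ppm did not pass without any 1 of exposed animals 301, 303, 304 and 305 (the change nearest 0, -0.60, and the highest adjusted p = 0.174 by edgeR were both without animal 305) or of control animals 2, 4, 7 and 10 (changes -0.72, -0.70, -0.70 and -0.71). At 100 ppm it did not pass without exposed animal 401, 403 or 404 (changes -0.74, -0.67 and -0.73, adjusted p = 0.0570, 0.0834 and 0.0546 by edgeR).

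The transcripts whose levels followed those of Slc1a2 most closely over the 61 liver libraries were Cyp2e1, a pericentral cytochrome P450, with Pearson r = 0.94, then the hepatic lipase Lipc (0.92), Ugt3a2 (0.92), the pyrimidine-degrading enzyme Dpys (0.91) and the plasma prekallikrein gene Klkb1 (0.91). The strongest opposite patterns were those of the calcium-binding protein S100a11 (-0.96), Pck2 (-0.92), Ngfrap1 (-0.91), Afp (-0.90) and the lysosomal protease Ctsd (-0.90). For Egfr the closest were the mannose-binding lectin Mbl1 (0.91), Serpina9 (0.90), the growth factor Igf1 (0.88), Serpina4-ps1 (0.87) and the fibrinogen chain Fgg (0.87), and the most opposite Cd36 (-0.85), Gmnn (-0.84), Afp (-0.83), Tpi1 (-0.83) and Abcb1a (-0.82). Slc1a2 and Egfr correlated with each other at r = 0.77. These correlations hold the shared fall in the exposed groups, and the libraries share the scaling by depth.

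Once each group's mean was subtracted, r between Slc1a2 and Egfr was -0.25 over the same 61 libraries. Within groups Egfr followed Serpina4-ps1 (r = 0.80), Serpina9 (0.78), Zbp1 (0.71), Gm3601 (0.70) and Igf1 (0.69), and ran opposite to the cytochrome P450 gene Cyp2a5 (-0.79), the monocarboxylate transporter Slc16a7 (-0.77), Tk1 (-0.69), Hadh (-0.69) and Gnpda1 (-0.68). Serpina4-ps1, Serpina9 and Igf1 were thus among the 5 closest to Egfr on both scales. Slc1a2 followed Abcb6 (0.64), Acadm (0.62), Rpa1 (0.60), Gpx4 (0.59) and the aspartate aminotransferase gene Got1 (0.58), and ran opposite to Pf4 (-0.64), Pcolce (-0.61), Gp49a (-0.60), Zeb2 (-0.60) and Nckap1l (-0.57). The median absolute r over all probes was 0.17 for Egfr and 0.14 for Slc1a2 on this scale.

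The list of ErbB receptors and their regulators holds 7 probes, Egfr included. At 250 ppm 1,2-DCB 4 of them were called lower and 0 higher, where 24.6% of all probes were lower and 25.1% higher. At 400 ppm 1,4-DCB 2 were lower and 0 higher, where the shares were 13.6% and 18%. Both counts include Egfr, which was chosen for its fall, and with all libraries 1 was lower at 400 ppm. Erbb3, the receptor that ErbB partners phosphorylate to reach PI3 kinase, went from 200.5 ± 25.9 CPM (SD, n = 9) to 142.9 ± 24.4 CPM (n = 6) at 250 ppm (change -0.49 ± 0.10, edgeR, adjusted p = 5.83e-05) and had a change of -0.14 ± 0.11 at 400 ppm (adjusted p = 0.361 by edgeR). Cblb, a ubiquitin ligase that targets active receptors, was lower under both compounds (-0.66 ± 0.13 and -0.63 ± 0.15). Dusp6, which removes phosphate from ERK, was lower at 250 ppm (-0.71 ± 0.15) and had 0.16 ± 0.17 at 400 ppm, which did not pass. Erbb2 was near 1 CPM in liver, with changes of 0.43 ± 0.33 and -0.12 ± 0.36 that did not pass. Of the ligands and sheddases only Adam10 and Ereg were tested, and Adam10, a sheddase of ErbB ligands, was higher at 250 ppm (0.33 ± 0.09).

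Of 22 probes of transducers downstream of the receptor, 5 were called higher and 8 lower at 250 ppm, against 25.1% higher and 24.6% lower of all probes. At 400 ppm 2 were higher and 8 lower, against 18% and 13.6%. The MAP kinase gene Mapk3 rose by 0.58 ± 0.06 and 0.30 ± 0.07, and Hras by 0.32 ± 0.06 and 0.28 ± 0.06. The kinase gene Src rose by 1.81 ± 0.34 at 250 ppm, from 1.55 to 5.50 CPM, and its 0.92 ± 0.37 at 400 ppm did not pass. Plcg1 was lower by both compounds, with changes of -0.45 ± 0.09 and -0.32 ± 0.09, as was the PI3 kinase subunit Pik3ca with -0.47 ± 0.07 and -0.29 ± 0.08 in its better-counted probe. With the libraries labelled as not used included, 1 of the 22 was lower and 1 higher at 400 ppm, and 5 were lower and 5 higher at 250 ppm. Of 8 probes of genes listed as early targets of EGFR, 3 were higher and 0 lower at 250 ppm, beside the same shares of all probes. The higher ones were Myc (1.73 ± 0.43), the stress factor Atf3 (1.66 ± 0.42) and Fosl1, which had 0 counts in all 9 controls and a mean of 1.67 CPM in the exposed livers. At 400 ppm, beside 18% higher and 13.6% lower of all probes, 0 were higher and 2 lower, Egr1 (-2.77 ± 0.64) and Ccnd1 (-1.28 ± 0.35).

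Of 6 probes of growth factor receptors other than ErbB, 5 were lower and 0 higher at 250 ppm, where 24.6% of all probes were lower and 25.1% higher. At 400 ppm 4 were lower and 0 higher, where the shares of all probes were 13.6% and 18%. The growth hormone receptor gene Ghr changed by -1.03 ± 0.11 and -0.46 ± 0.12, and Fgfr4, the hepatic receptor of FGF15, by -0.91 ± 0.08 and -0.24 ± 0.09. Of 13 growth hormone axis probes, 7 were lower and 1 higher at 250 ppm, and 8 lower and 1 higher at 400 ppm. With the libraries labelled as not used included, the lower counts at 400 ppm were 2 of 6 receptor probes and 5 of 13 growth hormone axis probes. Igf1 was lower under both compounds (-1.25 ± 0.10 and -0.76 ± 0.10 in its better-counted probe), as was Stat5b, which carries the growth hormone signal (-0.90 ± 0.12 and -0.59 ± 0.13). Socs2, a feedback inhibitor of that signal, was lower at 250 ppm (-2.34 ± 0.58), and its -0.29 ± 0.59 at 400 ppm did not pass.

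Of 8 amino acid transporter probes, 2 were called higher and 2 lower at 250 ppm, against 25.1% and 24.6% of all probes, and 2 higher and 1 lower at 400 ppm, against 18% and 13.6%. Slc1a2, which was chosen for its fall, is a lower one each time, and with all libraries 1 of 7 tested was lower at 250 ppm. The neutral amino acid transporter Slc1a4, of the same family, was higher under both compounds (1.41 ± 0.22 and 1.00 ± 0.24). The cystine-glutamate exchanger Slc7a11 went from a mean of 0.0822 to 5.33 CPM at 250 ppm and from 0.0169 to 2.71 CPM at 400 ppm. The 3 probes of Slc1a3, the other astrocytic glutamate transporter, stayed at or under 1.31 CPM on average and did not pass. Of 4 probes of glutamate and glutamine metabolism, 2 were lower at 250 ppm and 1 at 400 ppm. Glul, the glutamine synthetase of the same pericentral cells, went from 603 to 138.03 CPM (-2.13 ± 0.22, edgeR, adjusted p = 6.19e-12) and from 529 to 228 CPM (-1.21 ± 0.24, adjusted p = 3.98e-05). Got1, an aspartate aminotransferase, was lower at 250 ppm (-0.82 ± 0.19). Its -0.09 ± 0.20 at 400 ppm did not pass, and the difference between the compounds was not tested.

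The pericentral genes did not fall as a block. Of 18 pericentral probes, 5 were higher and 8 lower at 250 ppm, and 7 higher and 5 lower at 400 ppm, against 25.1% higher and 24.6% lower, and 18% higher and 13.6% lower, of all probes. Both lower counts include Slc1a2, which was chosen for its fall. Lower were Slc1a2, Glul, Cyp2e1 (-2.19 ± 0.15 and -1.05 ± 0.16) and the nuclear receptor gene Nr1i3, called CAR (-1.58 ± 0.14 and -1.13 ± 0.15 in the better-counted of its 2 probes). Higher were the detoxification genes Gstm3 (4.44 ± 0.20 and 4.35 ± 0.22), Cyp2c29 (1.76 ± 0.17 and 2.27 ± 0.19) and Aldh1a1 (0.90 ± 0.16 and 1.33 ± 0.18), and Cyp7a1, which starts bile acid synthesis, at 250 ppm (1.46 ± 0.36). Of 10 periportal probes, from the zone at the inflow side of the lobule, 1 was higher and 4 lower at 250 ppm and 2 higher and 5 lower at 400 ppm, led by the glucose-6-phosphatase gene G6pc (-3.06 ± 0.36 and -1.06 ± 0.36). Of 11 probes of hepatocyte transcription factors, 7 were lower and 0 higher at 250 ppm and 5 lower and 0 higher at 400 ppm, among them Ppara, the receptor for fatty acids (-0.81 ± 0.14 and -0.45 ± 0.15). With all libraries, 0 periportal probes were higher and 4 lower at 250 ppm and 1 higher and 1 lower at 400 ppm, and 5 and 2 transcription factor probes were lower at 250 and 400 ppm.

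**Figure D3:**
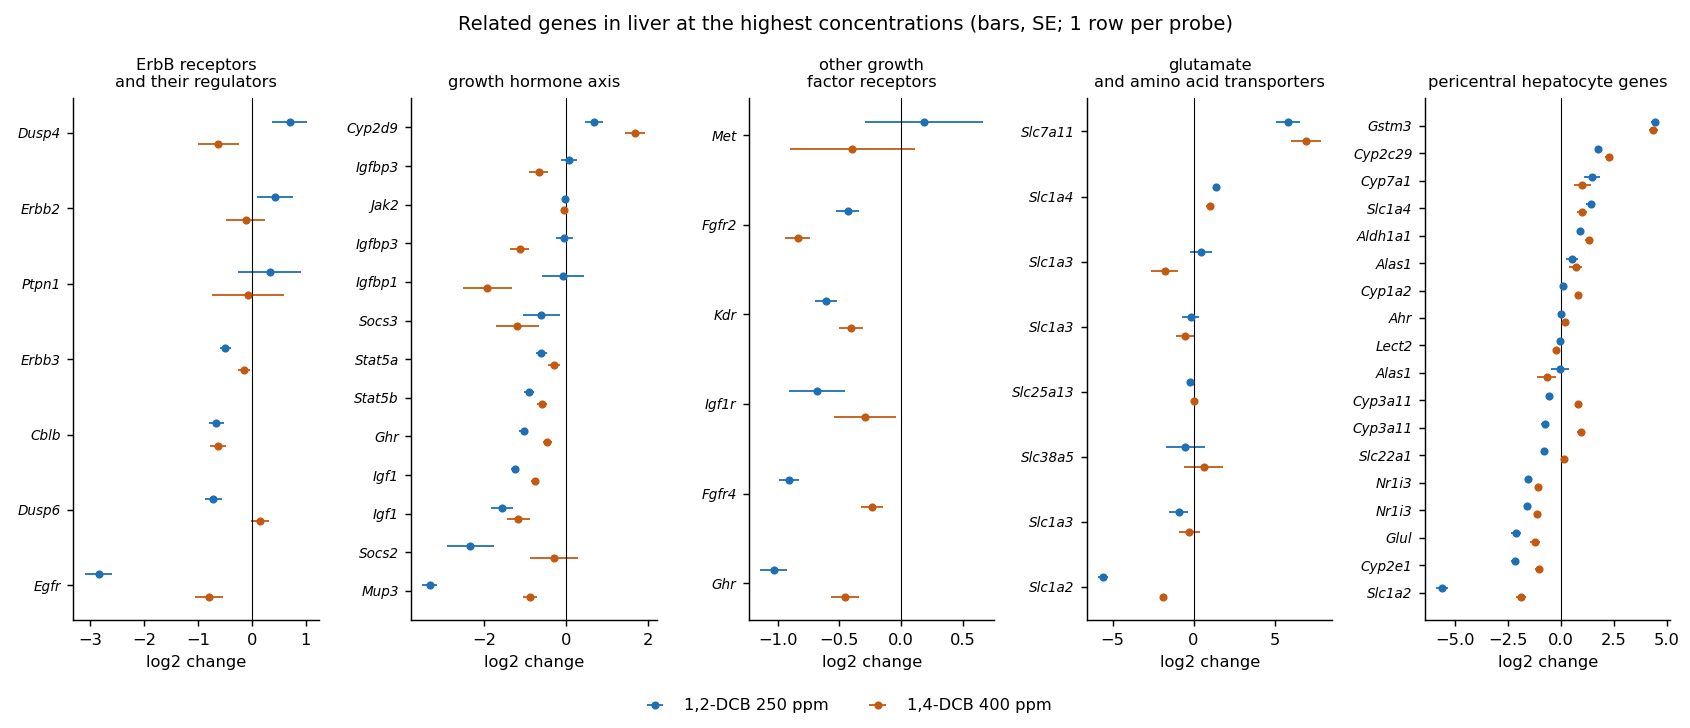
Log2 changes from 0 ppm in liver, with SE, for the probes of 5 gene lists at 250 ppm 1,2-DCB (blue) and 400 ppm 1,4-DCB (orange), 1 row per probe. Egfr and Slc1a2, which were chosen by their fall in liver, have the lowest change of their lists at 250 ppm. The pericentral genes spread from -5.59 for Slc1a2 to 4.44 for Gstm3.

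Cell type markers moved in the same livers. Of all probes 24.6% were called lower and 25.1% higher at 250 ppm, and 13.6% lower and 18% higher at 400 ppm. The 9 hepatocyte probes summed to 241738 to 375543 CPM in the 1,2-DCB controls and to 159710 to 213491 CPM at 250 ppm, with 7 of 9 called lower and 0 higher and a median change of -0.63. At 400 ppm 1,4-DCB 6 of 9 were lower, and their sum was 243530 to 276731 CPM against 297989 to 346638 CPM. All 5 endothelial probes tested were lower at 250 ppm (Pecam1 -0.60 ± 0.12) and 2 of 5 at 400 ppm. With the libraries labelled as not used included, 4 of 9 hepatocyte probes were lower at 250 ppm and 1 of 9 at 400 ppm, and 3 of 5 endothelial probes at 250 ppm and 0 of 5 at 400 ppm. Of 7 stellate cell and fibroblast probes 6 were higher at 250 ppm (Col1a1 2.52 ± 0.32) and 0 at 400 ppm. Of 5 cholangiocyte probes 3 were higher at 250 ppm and 2 at 400 ppm, and with all libraries 2 and 1. The red cell probes summed to 5293 to 19646 CPM in the controls and to 237 to 3504 CPM at 250 ppm. With alpha globin as a covariate, an alternative chosen after seeing the data, the changes at 250 ppm were -5.22 ± 0.43 for Slc1a2 and -3.11 ± 0.43 for Egfr. The part of the other cell types in the fall of either gene was not tested.

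In the lung, Egfr was lower at 4 of 5 concentrations of 1,2-DCB and at the highest of 1,4-DCB. Here EGFR sits mainly on epithelial cells. At 250 ppm 1,2-DCB the 6 exposed lungs had 26.7 to 36.3 CPM with a median of 32.3 CPM, against 38.4 to 61.4 CPM with a median of 51.6 CPM in 10 controls. The groups did not overlap, and the change was -0.68 ± 0.11 (edgeR, adjusted p = 6.97e-07), where 15% of 2756 probes were called lower. At 400 ppm 1,4-DCB the exposed lungs had 31.3, 36.4, 36.7, 37.8 and 40.2 CPM, against 41.2 to 70.9 CPM with a median of 47.7 CPM in 10 controls. Again no value overlapped, with a change of -0.50 ± 0.11 (edgeR, adjusted p = 0.00359) where 1.02% of the probes were called lower.

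At the lower concentrations of 1,2-DCB the lung levels of Egfr sat at the bottom of the control range. They were 35.3, 38.3, 39.02, 40.6 and 40.8 CPM at 10 ppm (change -0.40 ± 0.11, edgeR, adjusted p = 0.0433, with 0.943% of probes lower). At 30 ppm they were 30.5, 34.4, 37.96, 41.4 and 42.4 CPM (-0.46 ± 0.11, edgeR, adjusted p = 0.00705, with 2.29% lower). At 100 ppm they were 31.8, 35.7, 37.2, 39.7 and 45.8 CPM (-0.43 ± 0.11, edgeR, adjusted p = 0.0109, with 2.79% lower). The changes from 10 to 100 ppm had overlapping intervals and share the 0 ppm animals, and differences between these concentrations were not tested. At 1 ppm 1,2-DCB the change was -0.11 ± 0.12, and at 1 to 150 ppm 1,4-DCB it ran from -0.16 to -0.19 with 95% intervals that reached above 0, none of which passed.

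The Egfr calls at 250 and 400 ppm held in the lung under every alternative run, with changes from -0.72 to -0.63 and from -0.54 to -0.45 when single exposed libraries were left out. That at 10 ppm ended without any 1 of its 5 exposed animals (adjusted p from 0.0737 to 0.162 by edgeR), with all libraries included (adjusted p = 0.0790 by edgeR), without the filter on low counts (adjusted p = 0.0528 by edgeR) and in animals of 1,2-DCB alone (adjusted p = 0.0976 by edgeR). Those at 30 and 100 ppm ended without exposed animal 305 (-0.39, adjusted p = 0.0638 by edgeR) and 402 (-0.36, adjusted p = 0.0603 by edgeR).

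Other transcripts moved with Egfr in the lung. Dbp stood at 17.3 to 151.6 CPM in the 1,2-DCB control lungs and at 402 to 536, 392 to 525.5, 215 to 340.3 and 145.9 to 403 CPM at 10, 30, 100 and 250 ppm. At 400 ppm 1,4-DCB it stood at 250.4 to 399 CPM, against 24.9 to 162 CPM in the controls. The red cell probes summed to 224806 to 556924 CPM in the 1,2-DCB controls and to 12445 to 237923 CPM at 250 ppm, with 6 of 6 probes lower, and to 275028 to 547057 and 133051 to 580711 CPM at 0 and 400 ppm 1,4-DCB, with 0 of 6 lower. Of 6 endothelial probes 3 were lower at 250 ppm (Kdr -0.41 ± 0.13, Pecam1 -0.34 ± 0.11, Tek -0.29 ± 0.10) and 0 at 400 ppm. Of all probes in lung 15% were lower at 250 ppm and 1.02% at 400 ppm. Of the 7 ErbB probes, Egfr and Cblb (-0.34 ± 0.09) were lower at 250 ppm and Egfr alone at 400 ppm. With Dbp or alpha globin as a covariate Egfr stayed lower at both concentrations in lung. At 400 ppm Dbp in the exposed lungs lay above every control, and at 250 ppm the ranges met only at their edges. The Dbp covariate therefore cannot separate Dbp from exposure, and the cause of the fall was not tested.

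**Figure D4:**
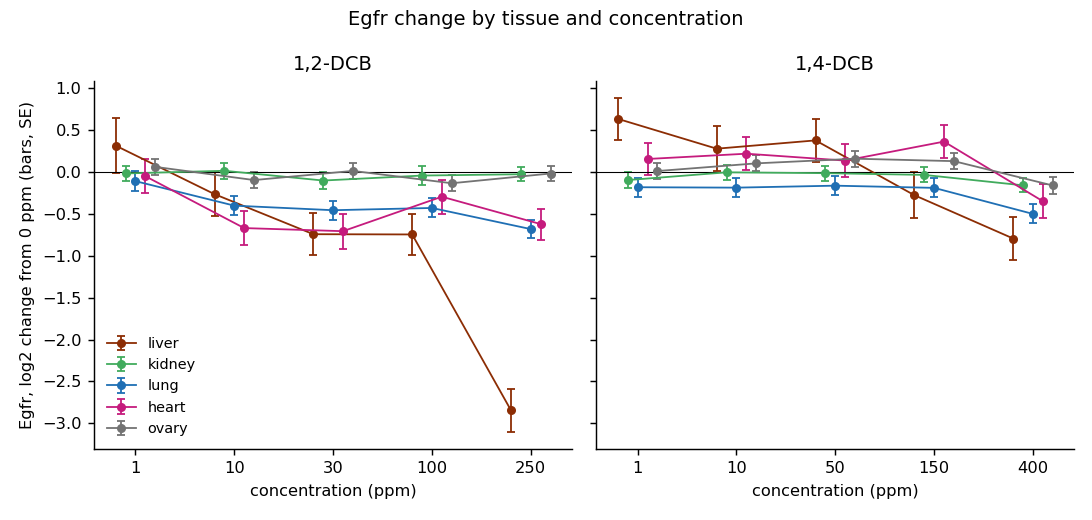
Log2 change of Egfr from 0 ppm (SE as bars) against the concentration of 1,2-DCB (left) and 1,4-DCB (right), with 1 line per tissue. The liver falls to -2.85 at 250 ppm, lung stays between -0.40 and -0.68 from 10 ppm 1,2-DCB upwards, and every kidney and ovary value lies between -0.16 and 0.16.

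In the heart, where Egfr was lowest, it was lower at 250 ppm 1,2-DCB. The 7 exposed hearts had 2.20 to 9.39 CPM with a median of 5.21 CPM, against 6.45 to 11.5 CPM with a median of 8.77 CPM in 10 controls, so 5 of 7 lay below every control. The change was -0.62 ± 0.18 (edgeR, adjusted p = 0.0215), where 4.81% of 2454 probes were called lower. At 10 ppm all 5 hearts, at 4.71, 4.89, 5.07, 6.15 and 6.36 CPM, lay below every control, but the change of -0.67 ± 0.21 did not pass (edgeR, adjusted p = 0.118, with 0.611% of probes called lower), nor did that of -0.71 ± 0.21 at 30 ppm (adjusted p = 0.0565 by edgeR and 0.0308 by DESeq2, with 1.51% called lower by edgeR). At 250 ppm these values rest on as few as 18 counts per library. Under 1,4-DCB no change passed, with 0.36 ± 0.19 at 150 ppm and -0.35 ± 0.20 at 400 ppm as the farthest from 0. Cyp2f2, which was highest in lung, reached 187 and 765 CPM in hearts of those groups, against at most 2.97 CPM in their controls. Whether these hearts held lung RNA was not tested.

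The call in the heart ended with Dbp as a covariate (-0.34, adjusted p = 0.385 by edgeR), with alpha globin as one (-0.61, adjusted p = 0.115 by edgeR), and without exposed animal 503, 505 or 508 (-0.57, -0.56 and -0.49, highest adjusted p = 0.0755 by edgeR). Dbp stood at 21.7 to 111.02 CPM in the control hearts and at 110 to 418 CPM at 250 ppm, and the red cell probes at 57468 to 264843 and 5606 to 63863 CPM. The Dbp ranges met only at their edges, so in heart too the Dbp covariate cannot separate Dbp from exposure.

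In the kidney Slc1a2 was lower at 250 ppm 1,2-DCB and Egfr passed the test nowhere. Egfr stayed at 66.7 to 101 CPM in all 51 libraries, with changes of -0.03 ± 0.09 at 250 ppm 1,2-DCB (95% interval -0.20 to 0.15) and -0.16 ± 0.09 at 400 ppm 1,4-DCB (95% interval -0.33 to 0.01). Slc1a2 had 0.188, 0.262, 0.887, 0.997, 1.10 and 1.26 CPM at 250 ppm 1,2-DCB, against 1.07, 1.68, 2.23, 2.77 and 3.11 CPM in the controls. Of the 6 exposed kidneys 4 lay below every control, with a change of -1.46 ± 0.44 (edgeR, adjusted p = 0.0222), where 4.95% of 2729 probes were called lower. These are 2 to 14 counts in the exposed libraries and 12 to 45 in the controls. At 10 ppm the 4 kidneys had 0.749, 0.919, 0.938 and 1.09 CPM and at 30 ppm the 3 had 0.286, 0.327 and 1.48 CPM, with changes of -1.21 ± 0.49 and -1.64 ± 0.56 that did not pass (edgeR, adjusted p = 0.501 and 0.222), where 0.183% and 0.33% of the probes were called lower. Under 1,4-DCB the kidneys spanned 0.614 to 4.77 CPM and no change passed.

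The kidney call rests on few libraries. It ended with the libraries labelled as not used included (-0.87, adjusted p = 0.292 by edgeR), with alpha globin as a covariate (-0.91, adjusted p = 0.670 by edgeR), and without exposed animal 505 or 508 (-1.28 and -1.26) or control animal 8 or 10 (-1.29 and -1.37), with adjusted p from 0.0510 to 0.0770 by edgeR. The red cell probes summed to 37271 to 52188 CPM in the control kidneys and to 1834 to 21107 CPM at 250 ppm. Of those tested 5 of 5 were lower, where 4.95% of all probes were lower. Dbp stood at 32.5 to 229 CPM in these control kidneys and at 489 to 698 CPM at 250 ppm. Neither the Dbp nor the red cell ranges overlapped, so neither covariate can separate its gene from exposure. At 400 ppm 1,4-DCB, where Slc1a2 did not pass, Dbp stood at 498 to 603 CPM, against 43.2 to 367 CPM in the controls.

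In the ovary Egfr did not pass at any concentration of either compound, with 66.6 to 113.8 CPM in all 72 libraries and changes from -0.16 to 0.16. At 250 ppm 1,2-DCB the 7 ovaries had 79.5 to 111.3 CPM with a median of 88.9 CPM, a change of -0.02 ± 0.09 (95% interval -0.19 to 0.16). Slc1a2 had too few counts for a test in ovary and heart. In the lung Slc1a2 had 0.0462 to 2.37 CPM over all libraries in use, and its change at 250 ppm 1,2-DCB was -0.54 ± 0.42 (95% interval -1.38 to 0.30), so a fall of the size seen in liver lay outside the interval.

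The isomers share only the concentrations of 1 and 10 ppm, and there the change under 1,4-DCB minus that under 1,2-DCB was tested for Egfr in 5 tissues and Slc1a2 in 3, 16 differences in all. By edgeR 0 passed, and 1 had an unadjusted p under 0.05. At 10 ppm the same difference was called for 1.58% of all probes in liver, 0.363% in lung, 1.14% in heart and 0.22% in kidney. In liver the difference at 10 ppm was 0.54 ± 0.38 for Egfr (95% interval -0.21 to 1.301, edgeR, adjusted p = 0.584) and -0.26 ± 0.32 for Slc1a2 (95% interval -0.91 to 0.40, adjusted p = 0.801 by edgeR). In lung it was 0.21 ± 0.16 for Egfr (95% interval -0.10 to 0.53, adjusted p = 0.931 by edgeR). The farthest from 0 relative to its error was that of Egfr in heart at 10 ppm, 0.89 ± 0.28 (95% interval 0.32 to 1.45, edgeR, p = 0.00257, adjusted p = 0.132). There the 5 hearts under 1,2-DCB had 4.71 to 6.36 CPM and the 5 under 1,4-DCB 5.99 to 11.8 CPM, and Dbp was 224 to 337 and 21.6 to 94.03 CPM. At 1 ppm the differences in liver were 0.32 ± 0.43 for Egfr and -0.14 ± 0.37 for Slc1a2, with 95% intervals from -0.54 to 1.18 and from -0.87 to 0.59.

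The 0 ppm animals of the series did not differ in either gene by the adjusted test. The largest difference relative to its error was that of Egfr in ovary, -0.18 ± 0.08 for 1,4-DCB minus 1,2-DCB (edgeR, p = 0.0237, adjusted p = 0.150), where 6.16% of 2713 probes differed. In liver it was -0.28 ± 0.22 for Egfr and -0.21 ± 0.19 for Slc1a2.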

How the data were processed

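Read counts per probe were deposited by the authors for 360 libraries and 3154 probes. Per the labels, they had been adjusted for attenuated probes. Alignment software listed there, per the submitters' processing notes, was Bowtie 1.3.1. For 59 probes a common factor showed in the counts, and for Slc1a2 and Egfr none did (factor 1). How strand was handled and the probe sequences are not given in the sources used here. Libraries labelled as not used (34) were left out and returned in an alternative, which in liver added mainly libraries with few counts. All 824 pairs of libraries within groups differed.

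Each tissue was fitted on its own in edgeR 4.0.16 (R 4.3.3, limma 3.58.1), with 12 groups, TMM scaling, filterByExpr and the two-sided quasi-likelihood test. P-values were adjusted by Benjamini-Hochberg over all probes of a contrast, and a call is an adjusted p under 0.05. Changes are log2 with the SE. A prior count of 2 was used for log2 CPM. The scripts were tested on simulated data. No molecular identifiers are in the files, so counts are reads. Each library is 1 animal, and no control is shared between compounds, but all contrasts of 1 compound share its 0 ppm animals.

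Alternatives were DESeq2 1.42.0, RLE scaling, no filter, all libraries, animals of 1 compound, factors undone, Dbp as covariate, the replicate number as a block and single libraries left out. Covariates Apoa1 and alpha globin, and further left-out lung and kidney libraries, were chosen after seeing the data. Tissues of 1 animal are paired by the labels' animal number. The genes and lists were chosen with earlier results of these data known. The text names both genes, the 5 probes most and least correlated with each in liver, and members of the lists called in liver at the highest concentrations.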

Additional observations from a re-analysis of the deposited data

Results flagged for a closer look

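Among 90 groups of 4 to 10 libraries, 5 held 1 library far from the others by Dixon's ratio at the 95% level, and chance gives about 1 in 20. Egfr reached 73.4 CPM in the liver of animal 503 at 250 ppm 1,2-DCB, where the next value was 49.7 CPM. It reached 258 CPM in the liver of animal 504 at 400 ppm 1,4-DCB, with 151.1 CPM next, and 65.2 CPM in the lung of animal 105 at 1 ppm 1,2-DCB, with 43.3 CPM next. Slc1a2 reached 1.75 CPM in the liver of animal 506R at 250 ppm 1,2-DCB, with 0.802 CPM next, and 2.37 CPM in the lung of animal 303 at 50 ppm 1,4-DCB, with 0.989 CPM next.

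Some libraries labelled as not used held levels above the highest control library in use, given here as CPM of the library total, and others held levels within or below the range of the controls. The kidney of animal 302 at 30 ppm 1,2-DCB, labelled an outlier by principal components or correlation, had 283 CPM of Egfr and 16.6 CPM of Slc1a2, against at most 88.1 and 3.09 CPM in the controls. The liver of animal 403 at 150 ppm 1,4-DCB, labelled likewise, had 52.8 CPM of Slc1a2 against at most 30.3 CPM. Kidneys labelled for possible contamination by other tissue had Egfr at 116.2 CPM (animal 4) and 91.1 CPM (animal 9) at 0 ppm 1,2-DCB, 91.5 CPM at 10 ppm (animal 202) and 105 CPM at 100 ppm (animal 402). Under 1,4-DCB such kidneys had 97.9 CPM of Egfr at 1 ppm (animal 105), against at most 93.99 CPM, and 2.42 CPM of Slc1a2 at 0 ppm (animal 1), against at most 2.40 CPM. Low values among such libraries were 2.04 CPM of Slc1a2 and 79.5 CPM of Egfr in the liver of animal 105 at 1 ppm 1,2-DCB, against at least 16.2 and 198 CPM in the controls. Egfr had 12.7 CPM in the lung of animal 104 at 1 ppm 1,2-DCB, against at least 32.1 CPM, and 31.9 CPM in the kidney of animal 5 at 0 ppm 1,2-DCB, against at least 73.02 CPM.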

How the results depend on the processing

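Of 1141 recomputed values, 1056 counted as unchanged, 42 lost the call, 1 gained it, 14 counts of list members moved further and 28 changed sign, 27 of these with neither value past the threshold. Unchanged meant the same direction and side of the threshold or, for list counts, within 1.5 times. For the untested falls in liver at the highest concentrations it meant a shift smaller than the SD of the exposed group, whatever the threshold. The falls in liver at the highest concentrations kept their direction in every alternative. Leaving out single libraries gave -6.19 to -5.42 (Slc1a2) and -3.01 to -2.78 (Egfr) at 250 ppm 1,2-DCB, and -2.13 to -1.73 and -1.03 to -0.65 at 400 ppm 1,4-DCB.

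With all libraries, Egfr in liver was -0.48, -0.75 and -0.77 at 1, 30 and 100 ppm 1,2-DCB, Egfr in lung -0.40 at 10 ppm, and Slc1a2 in kidney -0.87 at 250 ppm and 1.55 at 30 ppm (adjusted p = 0.0490 by edgeR), which adds animal 302. Slc1a2 in liver was then 0.21 at 150 ppm 1,4-DCB, and the isomer differences at 1 ppm were 0.18 (Slc1a2, liver) and 0.024 (Egfr, lung). With Dbp as a covariate, Egfr in liver was 0.21, -0.32 and -0.44 at 10, 30 and 100 ppm 1,2-DCB, Egfr at 250 ppm was -0.34 in heart and 0.069 in ovary, Slc1a2 in lung at 400 ppm was 0.0036, and the isomer differences in liver at 10 ppm were -0.033 (Egfr) and 0.13 (Slc1a2). With alpha globin, Egfr in heart was -0.61, Slc1a2 in kidney -0.91 and in lung 0.30 at 250 ppm, and 0.069 in lung at 400 ppm. Without the filter and within 1,2-DCB, Egfr in lung at 10 ppm was -0.40 both times. By DESeq2, Egfr in heart at 30 ppm was -0.70. The cause was not tested.

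Without single libraries, Egfr under 1,2-DCB ranged in liver from -0.12 to 0.65 at 1 ppm, -1.04 to -0.60 at 30 ppm and -0.85 to -0.67 at 100 ppm. In lung it ranged from -0.42 to -0.37 at 10 ppm, -0.50 to -0.39 at 30 ppm and -0.50 to -0.36 at 100 ppm. At 250 ppm it ranged from -0.79 to -0.49 in heart, -0.070 to 0.014 in kidney and -0.070 to 0.039 in ovary. Slc1a2 ranged in liver from -0.22 to 0.041 at 1 ppm 1,2-DCB and, under 1,4-DCB, from -0.030 to 0.15 at 10 ppm and -0.19 to 0.025 at 150 ppm. In kidney it ranged from -1.64 to -1.26 at 250 ppm and -0.44 to 0.12 at 400 ppm, in lung from -0.30 to 0.031 at 400 ppm, and the Egfr isomer difference in liver at 1 ppm from -0.014 to 0.75.

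With tissues paired by animal, the log2 differences whose call was lost were 3.79 and 3.72 (Slc1a2, liver over kidney, 1,2-DCB and 1,4-DCB), 0.95 and 1.12 (Slc1a2, kidney over lung), 0.71 (Egfr, kidney over lung, 1,2-DCB) and 1.64 (Egfr, liver over kidney, 1,4-DCB). Whether animals with the same number under 1,2-DCB and 1,4-DCB share more than that number is not given in the labels. Over 84 such pairs the correlation of deviations ran from -0.27 to 0.51, and 22 correlated best with their own number. How many would do so by chance was not computed. The replicate block moved the Egfr isomer difference at 10 ppm to 1.01 in liver (adjusted p = 0.266 by edgeR) and 0.87 in heart (0.120), and changed no call.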
